A study of Homo sapiens with 4 samples.

Results

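A skipped exon does not always have fixed ends. The exons described here are 5126 skipped exons that occur in more than one length, because each shares exactly 1 edge, its start or its end, with another skipped exon of the same chromosome and strand. They are part of 21631 skipped exons that had at least 10 informative reads in each of 2 human breast cancer lines, where an informative read fits either the isoform with the exon (an inclusion read) or the isoform without it (an exclusion read). One is MDA-LM2, a highly lung-metastatic derivative of MDA-MB-231, and it was set against its parental line MDA-MB-231, both untreated and grown in the same serum-supplemented medium. Total RNA of 2 samples of each line was sequenced, but the deposited files hold 1 set of values per line and name no replicate, so each line is taken here as 1 pooled library. A difference between the lines therefore has no replicate check, and it cannot be told apart from a difference between the cultures that were sampled.

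An exon is kept when the introns on its sides are removed from the precursor transcript, and it lies between an acceptor site, which ends the upstream intron with the bases AG, and a donor site, which starts the downstream intron with the bases GT or, less often, GC. The acceptor is recognised by U2AF and the U2 snRNP and the donor by the U1 snRNP, and where 2 usable sites lie near each other an exon can be joined at either. Tandem acceptors a codon apart, often called NAGNAG sites, add or drop a single amino acid, while shifts that are not a multiple of the codon length change the reading frame downstream.

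The 5126 exons met at 2507 shared edges. At 1566 edges the versions shared the donor and differed in the acceptor, and at 941 they shared the acceptor and differed in the donor. Most edges (2218) had 2 versions, 238 had 3, 43 had 4, 6 had 5 and 2 had 6, and 238 exons belonged to 2 groups because each of their edges was shared. In GENCODE release 29, 3309 of the exons were coding, 625 lay in 5′ untranslated regions, 111 in 3′ untranslated regions and 704 in non-coding transcripts, and 377 matched no annotated exon exactly. A single gene held 4588 of them, spread over 1675 genes, and 538 lay in overlapping genes. With at least 20 informative reads in each line, 4218 exons still met the rule.

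For LM2, 39981 events were listed, with 4701744 inclusion and 955034 exclusion reads, and for parental cells 43626 events with 5529885 and 1101330 reads. An exon with a shared edge had a median of 79 informative reads in LM2 and 96 in the parental line, and the median width of the deposited interval around its inclusion level was 0.14 in LM2 and 0.12 in the parental line. The inclusion level is the authors' deposited fraction, from 0 for an exon that is always skipped to 1 for one that is always kept. Its median was 0.77 in both lines (quartiles 0.22 and 0.95 in LM2, 0.21 and 0.95 in the parental line). Of the 5126 exons, 33.2% had no exclusion read in either line, as had 30.6% of all 21631 exons. Deposited levels below 1 occurred at such exons too, as in CD44 below, so reads are given beside many results. A second, read-based level was computed from inclusion and exclusion reads alone.

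The boundary that makes the difference can be read inside the longer version. The following windows come from GENCODE release 29 transcripts in the coordinates of hg38, 5′ to 3′ on the transcribed strand. Capitals mark bases held by the longer version only, so at an alternative acceptor the capitals end where the shorter exon starts, and at an alternative donor they start where the shorter exon stops. The first 6 are acceptors 3 nt apart, the next 3 are donors 4 nt apart, and the last 7 belong to exons whose inclusion levels are described below.
UAP1, chr1:162592732-162592749, plus strand: CAGtgctacaaatgggaa
FOXM1, chr12:2872230-2872247, minus strand: CAGatggtgaggcagcag
METAP2, chr12:95476071-95476088, plus strand: CAGgggaacaggaacctg
CD44, chr11:35201668-35201685, plus strand: CAGatgtagacagaaatg
HNRNPC, chr14:21211549-21211566, minus strand: TAGagatgaagaatgata
HIF1A, chr14:61720379-61720396, plus strand: TAGgataagttctgaacg
EIF4A2, chr3:186788402-186788420, plus strand: ttgaataaagagcgaGTCG
RACGAP1, chr12:50016631-50016649, minus strand: agtgaaggaaatgaaGTCC
AHCTF1, chr1:246842694-246842712, minus strand: aaacaaaacaagcaaGCAA
ERRFI1, chr1:8015370-8015399, minus strand: TTCCTCTCCTTTCAGcaactttttaaatat
LTA4H, chr12:96003906-96003935, minus strand: TTATTTTGCTCTTAGgcacctcttccattg
HNRNPC, chr14:21263322-21263351, minus strand: TTTGTTTTTTTACAGtgagatttttttgat
CHFR, chr12:132869784-132869813, minus strand: TCCATGGGACCAAAGatacctcaggtgcag
ZC3H14, chr14:88603031-88603060, plus strand: ttgaggacccaaatgGTAGCTTTTCTAACG
DEPDC1, chr1:68482626-68482655, minus strand: ttaagaaacagaagaGTGAGTGCTAATGAC
PTGES3, chr12:56666189-56666218, minus strand: gatggagcagatgatGTAAGTCTAAAAATT

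Nearly every inner site carried the bases of a splice site. The longer version matched an annotated exon, and so gave a sequence, in 1431 pairs of alternative acceptors and 807 pairs of alternative donors. The added stretch ended in AG in 1425 of the 1431 acceptor pairs (99.6%), where AG makes up 7.9% of all dinucleotides in these exons. It began with GT in 752 of the 807 donor pairs (93.2%, against 5.33% of all dinucleotides) and with GC in 52 (6.44%, against 6.07%), as in AHCTF1 above. These letters describe annotated exons and not how often a site was used in these cells. Both versions entered as exons with defined splice sites, so such bases were largely built in. The shares check the coordinates and are not a finding about these lines. Where the inner donor was GC, the longer version took more reads. The median log2 ratio of inclusion reads, longer over shorter version with 0.5 added to each count, was 0.71 in LM2 and 0.76 in the parental line for 52 GC pairs, against 0.45 and 0.48 for 752 GT pairs. Over shifts of up to 60 nt, which keep the lengths close, it was 0.55 and 0.57 for 34 GC pairs against 0.12 and 0.11 for 394 GT pairs. The shorter version had more reads at 7 of the 52 GC pairs in each line.

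To compare versions of 1 exon, 2 versions were paired at an edge where the files hold an event for each with the same upstream and downstream exon. Such a pair existed at 2403 of the 2507 edges, 1509 with alternative acceptors and 894 with alternative donors. In all 2403 pairs both versions had the same exclusion reads in each line, as they must when the flanking exons are the same, so the versions of a pair share their exclusion reads and the reads of their common body and are not independent measurements. Because reads in the common body can count for both versions, near-equal inclusion reads do not show that both sites were used, and a longer exon has more positions to collect reads. Each level sets 1 version against skipping, so the levels of 2 versions do not give the relative use of the 2 sites.

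The commonest single distances were short, but most pairs lay further apart. The median distance between acceptors was 33 nt and that between donors 50.5 nt. A distance of 3 nt was the commonest among acceptors (174 of 1509 pairs), followed by 4 nt (66) and 5 nt (54), while among donors 4 nt was the commonest (49 of 894) and 3 nt occurred in 7 pairs. The distance was a multiple of 3 in 39.0% of all pairs (37.1 to 41.0, an exact Clopper-Pearson 95% interval for counting error alone). Added bases were classed by whether any of them overlapped annotated coding sequence of any transcript on that strand. Among shifts of up to 60 nt the share was 48.5% (45.2 to 51.8) with such overlap and 32.7% (28.9 to 36.7) without. With overlap it was 51.0% for acceptors and 42.0% for donors.

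**Figure D1:**
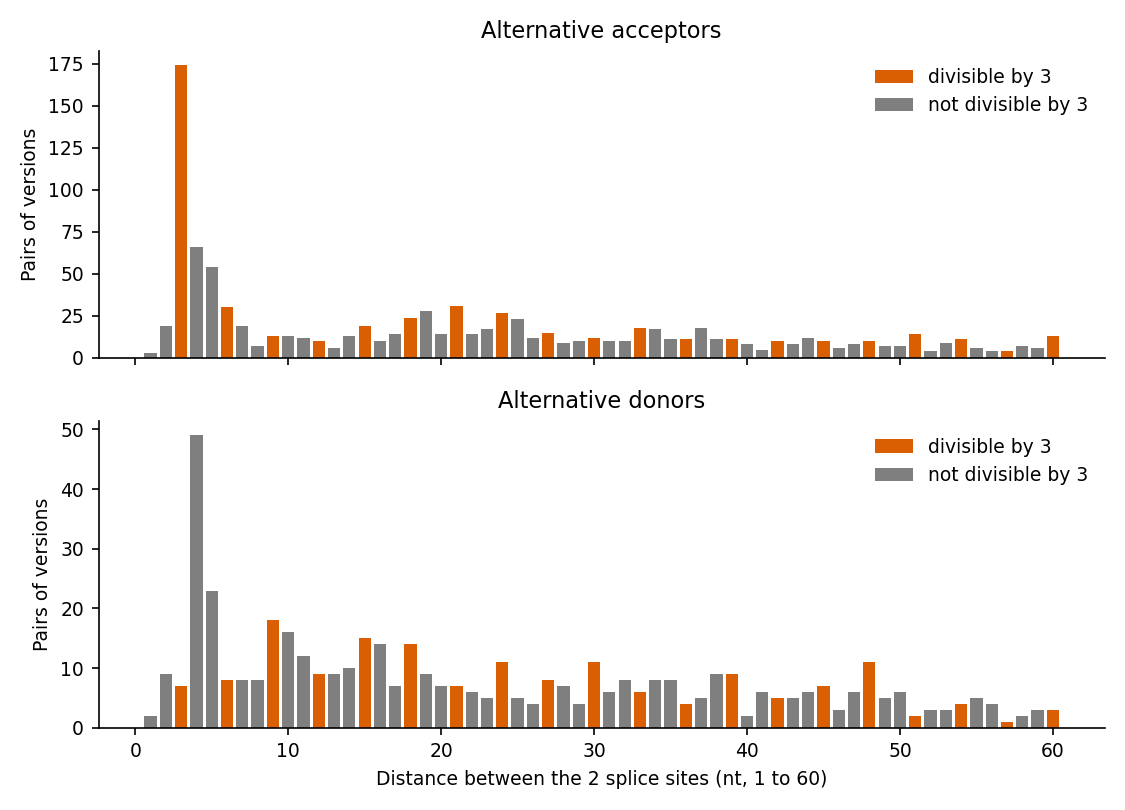
Number of pairs (y) by distance between the 2 splice sites in nt (x, 1 to 60), for alternative acceptors (top) and alternative donors (bottom), with distances divisible by 3 in orange. Acceptors peak at 3 nt with 174 pairs and donors at 4 nt with 49 pairs.

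At acceptors 3 nt apart the versions had similar inclusion reads in both lines. The added triplet ended in AG in all 167 of the 174 pairs with a sequence, and it was CAG in 107, TAG in 36, AAG in 16 and GAG in 8. It overlapped annotated coding sequence in 124 of the 174 pairs and in 15 of the 36 TAG pairs. No reading frame was worked out, so the triplets are not read as codons. The excess of reads for the longer version was largest where the added triplet was GAG or AAG. The median log2 ratio of inclusion reads, longer over shorter, was 0.55 for GAG and 0.41 for AAG in LM2, and 0.61 and 0.41 in the parental line. It was 0.10 for CAG and 0.08 for TAG in LM2, and 0.11 and 0.05 in the parental line. The shorter version had more reads in both lines at 19 CAG and 5 TAG pairs and at none of the 24 AAG and GAG pairs. These are descriptions over few pairs for AAG and GAG, with no test between triplets. The gap between the versions differed between the lines by at least 0.2 in 1 of the 174 pairs, in SF3B2, a U2 snRNP subunit, where the change was 0.22. The 51-nt and 48-nt versions of SF3B2 were at 0.96 and 0.39 in LM2, against 0.98 and 0.63 in the parental line. The 48-nt version had 28 inclusion reads in LM2 and 60 in the parental line, and its Bayes factor was 3.58. Exclusion reads were 1 in LM2 and 0 in the parental line, the same for both versions, so they give the deposited change little support. The 51-nt version had 122 inclusion reads in LM2 and 176 in the parental line. The log2 ratio of inclusion reads was 0.56 higher in LM2, in the direction of the gap, which rests on the same inclusion reads.

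Among the pairs with most reads, FOXM1, a transcription factor of mitotic genes, had 1116 inclusion reads for the 152-nt and 1077 for the 149-nt version in LM2, and 1569 and 1517 in the parental line. DDX5, an RNA helicase, had 1645 and 1635 in LM2 and 1998 and 1988 in the parental line for exons of 187 and 184 nt. All 4 versions stood at inclusion levels of 0.99 or 1.00 in both lines, so both versions of both exons were close to full inclusion. METAP2, which removes the first methionine from new proteins, had more reads for the longer version, 2029 against 536 for the shorter in LM2 and 2017 against 623 in the parental line. Its 108-nt version stood at 1.00 and its 105-nt version at 0.87 in both lines. HIF1A, the oxygen-regulated transcription factor, had more reads for the shorter version, with 845 for the 194-nt and 951 for the 191-nt exon in LM2, and 1248 and 1372 in the parental line. HNRNPC, an RNA-binding protein that competes with U2AF at acceptors, carried its TAG pair in an exon with deposited levels of 0.50 or below. Few reads showed skipping, with 0 exclusion reads in LM2 and 5 in the parental line. The 161-nt version had 1325 inclusion reads in LM2 and 1934 in the parental line. The 161-nt version stood at 0.45 (interval 0.42 to 0.47) in LM2 and 0.50 (0.47 to 0.52) in the parental line, and the 158-nt version at 0.25 (0.23 to 0.27) and 0.27 (0.25 to 0.29). CDCA7L was at 0.77 and 0.73 in LM2 and at 0.77 and 0.74 in the parental line for its 138-nt and 135-nt versions.

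Donors 4 nt apart change the reading frame when both are coding. RACGAP1, a protein of cytokinesis, had 365 inclusion reads for its 85-nt version and 21 for its 81-nt version in LM2, and 279 and 19 in the parental line. The levels were 0.97 and 0.10 in both lines, among the widest gaps described below, while the read-based gap was 0.149 in LM2 and 0.0881 in the parental line. AHCTF1, a nucleoporin that seeds nuclear pores, has a GC inner donor and had 400 reads for the 83-nt and 175 for the 79-nt version in LM2, against 525 and 208 in the parental line. SNHG5, a non-coding host gene of small nucleolar RNAs, had more reads for the shorter version, with 413 for the 85-nt and 1485 for the 81-nt exon in LM2 and 292 and 921 in the parental line. STK40 was at 0.59 for both its versions in LM2 and 0.51 for both in the parental line. EIF4A2 is described with the differences between lines.

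Within each line the deposited levels of paired versions were mostly close, and a minority were far apart. Paired versions share exclusion reads and body reads, so close levels are partly built in and do not show equal use of both sites. The gap, which is the level of the longer minus that of the shorter version, had a median of 0 in both lines, with quartiles of -0.04 and 0.04 in LM2 and -0.03 and 0.04 in the parental line. A large gap, of at least 0.2 with deposited intervals that do not overlap, was seen in 279 pairs in LM2 (11.6%), with the longer version higher in 114 and the shorter in 165. In the parental line it was seen in 307 pairs (12.8%), with the longer higher in 126 and the shorter in 181. Of these, 241 were large in both lines, which is 86.4% of the LM2 and 78.5% of the parental pairs, and the sign was the same in all 241. The 2 gaps had a Pearson correlation of 0.94 and a Spearman correlation of 0.87 over the 2403 pairs, a description in which the pairs share the annotation and the lines their origin. The median level of the longer version was below that of the shorter where sites were more than 200 nt apart. For acceptors it was 0.63 against 0.83 in LM2 and 0.61 against 0.82 in the parental line, and for donors 0.51 against 0.80 in LM2 and 0.465 against 0.765 in the parental line. Within such pairs the median gap was nevertheless small, at -0.02 for acceptors in LM2, -0.01 in the parental line and 0 for donors in both.

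**Figure D2:**
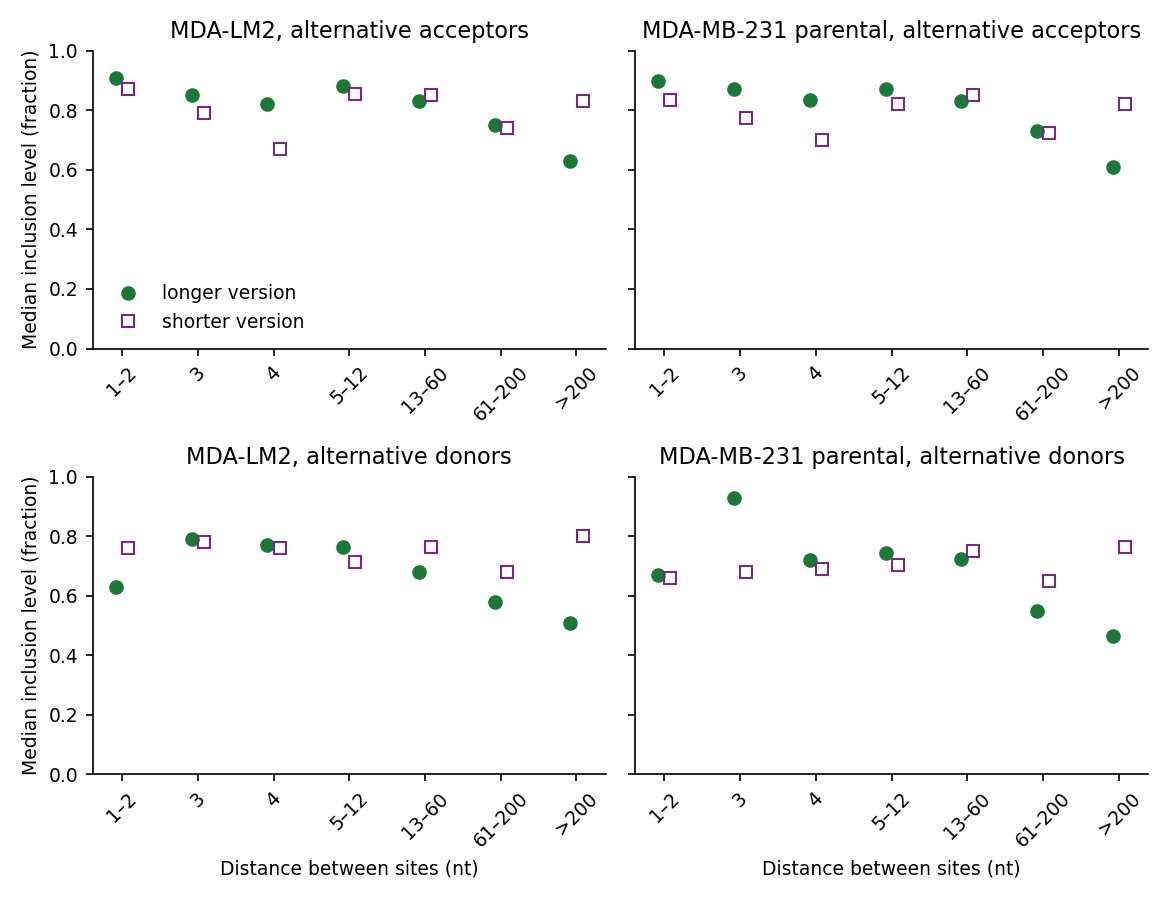
Median deposited inclusion level of the longer (filled circle) and shorter (open square) version of matched pairs, by distance between the sites in nt, for MDA-LM2 (left) and parental cells (right), alternative acceptors above and donors below. Beyond 200 nt the longer version lies below the shorter in all 4 panels, at 0.63 against 0.83 for acceptors in LM2; the classes of 1 to 2 nt and of 3-nt donors hold 7 to 22 pairs.

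The pairs named next were chosen for wide gaps in both lines. PCNP had a higher level for the longer version, with 0.97 for its 344-nt and 0.04 for its 95-nt version in LM2, and 0.96 and 0.05 in the parental line. RAN, the GTPase of nuclear transport, stood at 0.98 and 0.17 in LM2 and at 0.97 and 0.12 in the parental line for its 46-nt and 34-nt versions, with 1622 and 18 inclusion reads in LM2 and 911 and 12 in the parental line. In the other direction, PTGES3, the HSP90 co-chaperone p23, had 0.13 for a 635-nt and 0.94 for a 63-nt version in LM2, and 0.10 and 0.95 in the parental line. SGCE, a sarcoglycan, had 0.06 and 0.99 in LM2 and 0.07 and 0.98 in the parental line for versions of 955 and 44 nt. DAP was at 0.18 and 0.99 in LM2 and 0.10 and 0.99 in the parental line, and AFTPH, a clathrin accessory protein, at 0.06 and 0.93 in LM2 and 0.06 and 0.87 in the parental line. DDX3X, an RNA helicase of translation, stood at 0.05 for a 1393-nt version in LM2 and 0.04 in the parental line, and its 48-nt version at 1.00 (0.99 to 1.00) in LM2 and 0.83 (0.75 to 0.91) in the parental line. The longer versions of SGCE, PTGES3, DAP, AFTPH and DDX3X extend the exon by 220 to 1727 nt, and for all but DDX3X they are annotated as non-coding. SGCE, DAP and DDX3X had 0 exclusion reads in both lines, so their read-based gap was 0, and that of PTGES3 was -0.02 in LM2 and -0.01 in the parental line. For PCNP and RAN the read-based gap was also large, at 0.868 and 0.683 in LM2 and 0.848 and 0.641 in the parental line. For AFTPH it was 0.0051 in LM2 and 0.0124 in the parental line, opposite in sign to the deposited gap.

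Between the lines, few versions differed. By the authors' deposited table, a version was called when its Bayes factor, the odds of a difference over none, was at least 10 and its difference at least 0.2. Of the 5126 exons, 53 were called higher in LM2 (1.03%, where the share over all 21631 exons was 0.846%) and 10 lower (0.195%, where it was 0.254%). The median difference was 0 over the 5126 exons, with quartiles of -0.02 and 0.03, and 0 over all exons. The called exons lay in coding sequence in 40 cases, in 5′ untranslated regions in 7 and in non-coding transcripts in 9, and 7 matched no annotated exon. Of the 5126, 64.6% were coding, 12.2% 5′ untranslated, 13.7% non-coding and 7.35% not annotated. Of the 63, 16 had no exclusion read in either line (25.4%, against 33.2% of the 5126). Fewer than 10 over both lines were found in 42 (66.7%, against 61.7% of the 5126). The read-based level was also at least 0.1 apart, with the same sign, in 13 of the 53 exons called higher and in 5 of the 10 called lower, a check chosen after the data were seen. The read-based difference was 0 in 16 of the 63 and had the opposite sign in 11, all called higher. For 37 of the 53 the parental read-based level was above 0.9, which leaves no room for 0.1 more. Fisher's exact test of the reads, which compares the 2 pooled libraries only, called 3 of the 5126 exons higher (background 0.0878%) and 1 lower (background 0.0462%) at an adjusted p of 0.05 where the read-based levels were 0.2 or more apart.

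**Figure D3:**
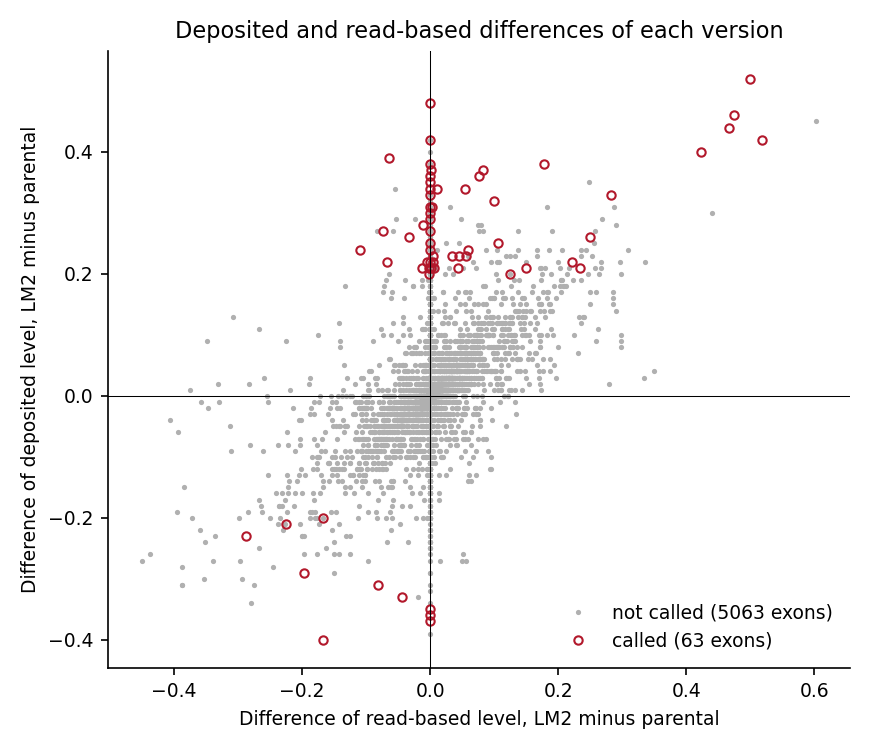
Difference in inclusion level between MDA-LM2 and parental cells for each of the 5126 versions, computed from inclusion and exclusion reads (x) and as deposited (y). Red circles are the 63 called exons; many lie near 0 on the read axis at deposited differences of 0.2 to 0.5.

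Among the exons called higher, both versions of an ATG13 exon were called. ATG13 belongs to the complex that starts autophagy, and the 2 exons share their donor on chromosome 11 (46629907 to 46630100 for the longer, 194 nt; the shorter of 56 nt starts at 46630045). The 194-nt version was at 0.75 (0.51 to 0.95) in LM2 and 0.23 (0.11 to 0.39) in the parental line, and the annotated 56-nt version, in the 5′ untranslated region, at 0.90 (0.73 to 0.99) and 0.46 (0.27 to 0.70). Exclusion reads were 1 in LM2 and 8 in the parental line for either. UBE2J2, a ubiquitin-conjugating enzyme of the endoplasmic reticulum, was at 0.73 and 0.97 for its 260-nt and 131-nt versions in LM2, against 0.31 and 0.68 in the parental line, with 0 exclusion reads in both lines. CHFR, a ubiquitin ligase of the mitotic checkpoint, was at 0.46 and 0.60 for 216 and 180 nt in LM2, against 0.19 and 0.21, with exclusion reads of 2 in LM2 and 0 in the parental line. Its read-based differences ran the other way, at -0.0727 for 216 nt and -0.0645 for 180 nt. NAA40, a histone N-terminal acetyltransferase, was at 0.71 and 0.89 for 279 and 53 nt in LM2, against 0.33 and 0.56, and its exclusion reads were 2 in LM2 and 10 in the parental line. ARPP19, an inhibitor of the phosphatase PP2A at mitotic entry, has acceptors 2 nt apart. Its 55-nt version was at 0.97 in LM2 and 0.74 in the parental line, and its 53-nt version at 0.94 and 0.58, with 1 exclusion read in LM2 and 4 in the parental line.

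In other genes a called version stood beside one that was not called. ZNF148, a zinc finger transcription factor, was called for its 76-nt version, at 0.94 in LM2 and 0.46 in the parental line, while the 81-nt version was at 0.99 and 0.98. CUL4A, a scaffold of ubiquitin ligases, was called for its 91-nt version, at 0.88 in LM2 and 0.50 in the parental line, while the 116-nt version was at 1.00 and 0.99. Both genes had 0 exclusion reads. The called versions held fewer reads, 52 in LM2 and 29 in the parental line for ZNF148 and 52 and 35 for CUL4A. ERRFI1, a feedback inhibitor of the EGF receptor, was at 0.50 in LM2 and 0.14 in the parental line for the 77-nt version and at 0.21 and 0.08 for the 93-nt version, with 0 exclusion reads and a read-based level of 1.00 in both lines for either. RPS3, a protein of the small ribosomal subunit, had 3 versions. Those of 95 and 143 nt were called, at 0.87 and 0.49 in LM2 against 0.50 and 0.28 in the parental line, and the non-coding version of 807 nt stood at 0.47 and 0.52. The read-based levels of both called RPS3 versions differed by less than 0.01 between the lines. INO80E, a subunit of a chromatin remodelling complex, was called for 319 nt (0.68 in LM2, 0.31 in the parental line) and 117 nt (0.91 and 0.59), with 0.40 and 0.33 for a non-coding version of 3446 nt. Exclusion reads were 1 in LM2 and 2 for the parental line.

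Of the exons called lower, CD44, the hyaluronan receptor, carried 2 with acceptors 3 nt apart on chromosome 11 (35201668 and 35201671 to 35201787). The 120-nt and 117-nt versions both stood at 0.58 (0.47 to 0.70 and 0.47 to 0.71) in LM2, against 0.95 (0.87 to 1.00) and 0.94 (0.85 to 0.99) in the parental line. They had 137 and 132 inclusion reads in LM2 and 233 and 223 in the parental line, and 0 exclusion reads, so the read-based level was 1.00 throughout. RPLP1, a protein of the ribosomal stalk, was called for an annotated non-coding version of 1641 nt, at 0.65 (0.63 to 0.68) in LM2 and 1.00 (0.99 to 1.00) in the parental line, with 16663 and 20352 inclusion reads and 0 exclusion reads. Its 118-nt version, which shares the donor, was at 1.00 in both, and its 75-nt version, which shares the acceptor, at 0.89 and 0.99. SETMAR, a histone methyltransferase fused to a transposase, was at 0.62 in LM2 and 0.95 in the parental line for 864 nt, and at 0.71 and 0.93 for 332 nt, which was not called, and the 864-nt version had 1 exclusion read in LM2 and 0 in the parental line. BZW2 was called for 117 nt and not for 136 nt, which were at 0.58 and 0.65 in LM2, against 0.87 and 0.91, with exclusion reads of 15 in LM2 and 1 in the parental line. SERPINB6, an intracellular inhibitor of serine proteases, was the lower exon that also passed Fisher's exact test (adjusted p 0.000181). Its 135-nt version was at 0.12 (0.07 to 0.17) in LM2 and 0.33 (0.26 to 0.41) in the parental line, with 16 inclusion and 92 exclusion reads in LM2 and 51 and 58 in the parental line. The 324-nt version, measured in an event with 0 exclusion reads, was at 0.81 and 0.78.

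At 50 matched pairs at least 1 version was called. Both were called in 12, always in the same direction, the longer alone in 19 and the shorter alone in 19. Of the 38 versions that were not called beside a called one, 33 had a difference of the same sign, 5 had 0 difference and 0 had the opposite sign, and 16 lay within 0.05 of no difference. In 12 of the 38 the version not called had a level of at least 0.9 in both lines. Paired versions share exclusion reads and body reads, so like signs within a pair are not independent support. Over all 2403 pairs the differences of the 2 versions had a Pearson correlation of 0.69 and a Spearman correlation of 0.70, a description of versions that share reads.

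A second set was formed from exons with exclusion reads. It takes a Bayes factor of at least 10 in the authors' deposited table, at least 20 exclusion reads over both lines, and deposited and read-based levels that both differ by 0.1 or more with the same sign. This rule was chosen after the values were seen. It held for 18 exons higher in LM2 (0.351%, background 0.310%) and 8 lower (0.156%, background 0.208%), in 16 genes, and 9 of the 26 were also called at a difference of 0.2. Counted over exons with at least 20 exclusion reads alone, 1.62% of the 1601 with a shared edge and 1.4% of all 8022 met it. In 10 of the 17 matched pairs that held such an exon both versions met the rule, and in 16 their differences had the same sign. The exception was NAP1L4, whose matched event had 0 exclusion reads. Both versions of a matched pair have the same exclusion reads, so joint passing and like signs are not independent support.

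**Figure D4:**
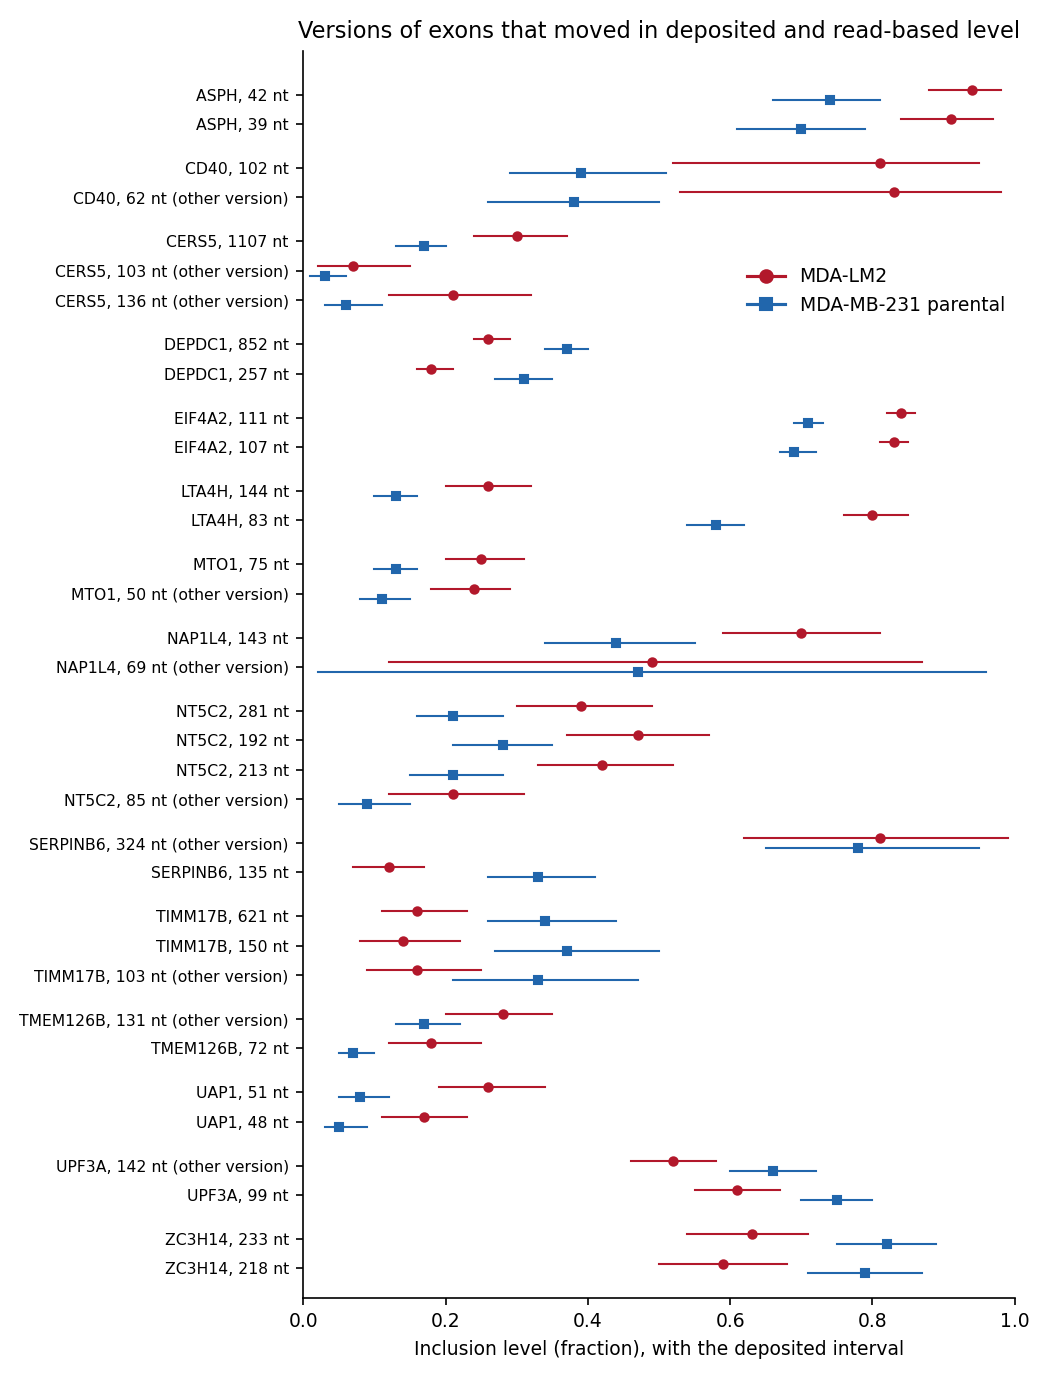
Deposited inclusion level (x, fraction) of each version in 15 of the 16 genes whose exons moved in both deposited and read-based level, with MDA-LM2 (red circles) above parental cells (blue squares) and lines for the deposited intervals. The 2 EIF4A2 versions stand at 0.84 and 0.83 in LM2 and 0.71 and 0.69 in the parental line, and those of DEPDC1 and ZC3H14 are lower in LM2.

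EIF4A2, an RNA helicase of translation initiation, had the most reads in this set. Its versions of 111 and 107 nt, whose donors lie 4 nt apart on chromosome 3 (186788310 to 186788420 and to 186788416), were at 0.84 (0.82 to 0.86) and 0.83 (0.81 to 0.85) in LM2, and at 0.71 (0.69 to 0.73) and 0.69 (0.67 to 0.72) in the parental line. Inclusion reads were 2257 and 2072 in LM2 and 1633 and 1512 in the parental line, and exclusion reads 247 and 363. The read-based level of the longer was 0.820 in LM2 and 0.692 in the parental line, so the 2 measures were close. LTA4H, the hydrolase that makes leukotriene B4, had 2 versions that passed Fisher's exact test as well (adjusted p 2.05e-07 for 83 nt and 0.000274 for 144 nt). The coding 83-nt version was at 0.80 (0.76 to 0.85) in LM2 and 0.58 (0.54 to 0.62) in the parental line, and the 144-nt version, whose acceptor lies 61 nt upstream, at 0.26 (0.20 to 0.32) and 0.13 (0.10 to 0.16). Exclusion reads were 47 in LM2 and 159 in the parental line. VEGFA, the vascular endothelial growth factor, lay outside this set but passed the test for a 97-nt coding version (adjusted p 0.00882), with 139 inclusion and 20 exclusion reads in LM2 and 116 and 54 in the parental line, but its deposited levels were 0.27 and 0.18.

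UAP1, which makes the sugar donor UDP-N-acetylglucosamine, has a short exon in 2 versions, 51 and 48 nt, joined at the CAG pair shown above. They were at 0.26 (0.19 to 0.34) and 0.17 (0.11 to 0.23) in LM2, against 0.08 (0.05 to 0.12) and 0.05 (0.03 to 0.09), with 40 and 24 inclusion reads in LM2 and 14 and 8 in the parental line. ASPH, an aspartate hydroxylase, has versions of 42 and 39 nt at 0.94 and 0.91 in LM2, against 0.74 and 0.70, with 5 exclusion reads in LM2 and 25 in the parental line. NT5C2, a cytosolic purine nucleotidase, had 3 versions in the set, of 281, 192 and 213 nt, at 0.39, 0.47 and 0.42 in LM2, against 0.21, 0.28 and 0.21. MTO1, a modifier of mitochondrial transfer RNA, was at 0.25 for 75 nt in LM2 and 0.13 in the parental line, with 0.24 and 0.11 for 50 nt. CD40, a receptor of the TNF receptor family, was at 0.81 (0.52 to 0.95) in LM2 and 0.39 (0.29 to 0.51) in the parental line for 102 nt, with 15 inclusion and 0 exclusion reads in LM2 and 41 and 22 in the parental line. NAP1L4, CERS5 and TMEM126B were also among the higher exons, at 0.70, 0.30 and 0.18 in LM2 against 0.44, 0.17 and 0.07.

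DEPDC1 had the most reads among the lower exons. Its versions of 852 and 257 nt, with donors 595 nt apart, were at 0.26 (0.24 to 0.29) and 0.18 (0.16 to 0.21) in LM2, against 0.37 (0.34 to 0.40) and 0.31 (0.27 to 0.35) in the parental line, with 335 exclusion reads in LM2 and 206 in the parental line. ZC3H14, a poly(A)-binding zinc finger protein, was at 0.63 and 0.59 for 233 and 218 nt in LM2, against 0.82 and 0.79, with 31 and 16 exclusion reads. UPF3A, a factor of nonsense-mediated decay, was at 0.61 (0.55 to 0.67) for 99 nt in LM2 and 0.75 (0.70 to 0.80) in the parental line, and its 142-nt version, which was not in the set, at 0.52 and 0.66. TIMM17B, a subunit of the mitochondrial inner membrane translocase, was at 0.16 and 0.14 for 621 and 150 nt in LM2, against 0.34 and 0.37, and a version of 103 nt outside the set stood at 0.16 and 0.33. The 135-nt exon of SERPINB6 completed the set.

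The gap between paired versions changed at few edges. The gap differed between the lines by at least 0.2 in 65 of 2403 pairs (2.7%), upward in LM2 in 34 and downward in 31. Of these, 37 had no exclusion read in either line and 32 had an event with fewer than 20 informative reads. Among the 931 pairs with at least 10 exclusion reads over both lines, 6 changed. As a measure that needs no exclusion reads, the log2 ratio of inclusion reads of the longer over the shorter version was compared between the lines, a choice made after the data were seen. It moved the same way as the gap in 58 of the 65 pairs, by at least 0.5 in 33, and the other way in 7. The gap rests on the same inclusion reads, and the 65 pairs were picked for their change of gap. The shared direction is therefore not separate support. Over the 1528 pairs with at least 20 inclusion reads for each version in each line, it moved by at least 0.5 in 66 and by at least 1 in 3.

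**Figure D5:**
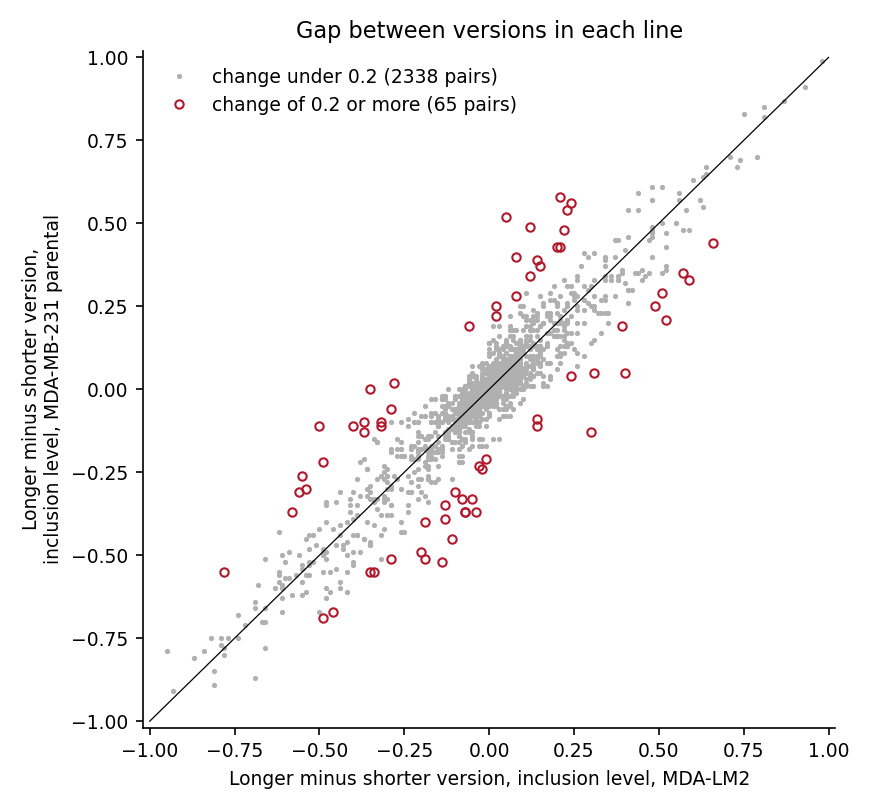
Gap between the versions of a pair (longer minus shorter, inclusion level) in MDA-LM2 (x) and parental cells (y) for 2403 matched pairs, with the line of equal gaps. Red circles are the 65 pairs whose gap differed by at least 0.2; most points lie near the line.

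Those 3 pairs were in APTX, HM13 and CCDC14. APTX, a repair enzyme of DNA breaks, has acceptors 5 nt apart. Its 47-nt version had 39 inclusion reads and its 42-nt version 24 in LM2, against 20 and 29 in the parental line, a log2 ratio of 0.69 in LM2 and -0.53 in the parental line. HM13, the signal peptide peptidase, had 31 reads for the longer and 184 for the shorter version in LM2, against 22 and 327, with gaps of -0.69 in LM2 and -0.87 in the parental line. CCDC14 had 486 reads for a non-coding version of 953 nt and 82 for its 56-nt version in LM2, against 498 and 41 in the parental line. Its levels were 0.45 and 0.95 in LM2, against 0.27 and 0.38, a change of gap of -0.39. With the best-covered event of each version, where the flanking exons differ, the CCDC14 change was 0.14, in the opposite direction.

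Among pairs in a single gene with at least 20 informative reads per event, the others with the largest changes had read ratios that moved by less than 1. The change of gap was -0.47 in ZNF148 and -0.37 in CUL4A, while their log2 read ratios were 1.67 and 3.71 in LM2 and 1.96 and 3.62 in the parental line. In RPLP1 the gap changed by -0.35 and the ratio was 0.28 in LM2 and 0.32 in the parental line, with 13728 reads for the shorter version in LM2 and 16316 in the parental line. SEPT2, a septin of the cytoskeleton, changed by 0.34. Its 140-nt version was at 0.89 in LM2 and 0.55 in the parental line and its 124-nt version at 1.00 in both, and the log2 read ratio was -1.79 and -1.87. ZBTB8OS changed by 0.30 with ratios of 0.08 in LM2 and -0.13 in the parental line, but by 0.14 between the best-covered events and by 0.0092 in the read-based level. NEMP2 changed by -0.31 and INO80E by -0.30, with ratios of 2.11 and 2.59 in LM2 and 2.68 and 3.46 in the parental line. In ZNF148, CUL4A, RPLP1, SEPT2, NEMP2 and CCDC14 exclusion reads were 0 in both lines, so the read-based change of gap was 0.

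Some edges carried many versions. FIGNL1, an ATPase of homologous recombination, had 6 donors after a shared acceptor, giving exons of 145 to 606 nt, all but the 145-nt one annotated as 5′ untranslated. Their levels were 0.74 to 0.96 in LM2 and 0.43 to 0.87 in the parental line, none was called, and exclusion reads were 1 in LM2 and 4 in the parental line, shared by all 6. RAB34, a small GTPase, had 6 acceptors before a shared donor, giving coding exons of 79 to 435 nt at 0.85 to 0.91 in LM2 and 0.92 to 0.93 in the parental line, with 0 exclusion reads. MTERF4, a factor of mitochondrial ribosome assembly, had 5 donors over exons of 46 to 2162 nt. The 4 longer ones were at 0.95 to 0.97 in LM2 and 0.92 to 0.94 in the parental line, and the 46-nt version at 0.84 (0.63 to 0.98) and 0.68 (0.40 to 0.93) from 13 and 10 inclusion reads.

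Genes that recognise splice sites had versions of their own. Of 25 exons in 7 splice-site recognition genes, 0 were called in either direction by the Bayes factor or by Fisher's exact test, and of 43 exons in 16 genes of SR proteins and hnRNPs 0 were called. Since 0.846% of all exons were called higher and 0.254% lower, lists of this size can have no call without standing apart. The median difference of either list was 0, as over all exons. In RBM39, an RNA-binding relative of U2AF, versions of 896 and 72 nt were at 0.09 (0.09 to 0.10) and 0.17 (0.15 to 0.19) in LM2, against 0.05 (0.05 to 0.06) and 0.08 (0.07 to 0.09) in the parental line. Exclusion reads there were 191 in LM2 and 285 in the parental line, and the differences were below the limit of 0.2. In HNRNPC, versions of 519 and 26 nt whose acceptors lie 493 nt apart had 0.21 (0.20 to 0.22) and 0.95 (0.94 to 0.96) in LM2, against 0.23 (0.22 to 0.24) and 0.91 (0.90 to 0.92). SNRNP70, a U1 snRNP protein, included versions of 1474 and 72 nt at 0.02 and 0.01 in both lines. HNRNPH1 and HNRNPH3 stood at 0.96 to 1.00 in both lines for their 4 versions, and SUGP1 at 0.94 and 0.98 in LM2 and 0.97 and 0.99 in the parental line.

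Of 46 exons in 18 cytoskeleton and adhesion genes, 1 was called higher, the 89-nt version of a 5′ untranslated exon of PTK2, which encodes focal adhesion kinase (0.61 in LM2, 0.33 in the parental line), and 2 were lower, both versions of 1 CD44 exon that share reads (over all exons 0.846% were called higher and 0.254% lower). The versions with most reads stood near full inclusion. They were in TPM3, a tropomyosin, ITGA6, a laminin receptor subunit, and EPB41L2, a membrane skeleton protein, all at 0.99 or 1.00 in both lines. Of 41 exons in 14 membrane traffic genes, 3 were called higher (0.846% over all exons), 2 of them versions of 1 ATG13 exon and 1 in EXOC7, an exocyst subunit (153 nt, 0.42 in LM2 and 0.18 in the parental line). The read-based differences had the opposite sign, at -0.01 in PTK2 and -0.11 in EXOC7. SEC31A, a coat protein of transport from the endoplasmic reticulum, was at 0.42 and 0.43 for 342 and 297 nt in LM2, against 0.36 for both. COPA was near full inclusion, at 1.00 and 0.98 in LM2 and 1.00 and 0.97 in the parental line, and AP2B1 near full skipping, at 0.01 or below in both lines. Of 52 exons in 20 chromatin and transcription genes, 1 was called lower (0.254% over all exons), in SETMAR. CHD8, a chromatin remodeller, was at 0.61 and 0.59 for 924 and 843 nt in LM2, against 0.70 for both in the parental line. Its Bayes factors were 0.56 and 0.69, and its exclusion reads only 6 in LM2 and 4 in the parental line. The 924-nt version had 483 and 905 inclusion reads. H2AFY, a macroH2A gene, was at 0.98 and 0.99 in LM2 and 0.99 and 1.00 in the parental line. The median difference was 0 for cytoskeleton and adhesion, 0.01 for membrane traffic and -0.01 for chromatin and transcription, against 0 over all exons.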

How the data were processed

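RNA from 2 samples each of MDA-LM2 and parental MDA-MB-231 was sequenced from ScriptSeq v2 libraries, per the labels' protocols. Reads were aligned with STAR 2.7 to hg38, per the submitters' processing notes, and MISO estimated the skipped-exon levels, per the file headers. Not given in the sources used here are MISO's settings, its interval level and any pooling of replicates. The authors deposited inclusion levels as a fraction with interval bounds, read counts per event as text, the difference LM2 minus parental as a score, and the Bayes factor as a ratio, capped in the file.

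Here, 39160 events were in both files and 24495 had 10 or more informative reads in each. An exon's values come from whichever of its events had most informative reads, and pairs used events with the same flanking exons. The read-based level is inclusion reads divided by 2, over that plus exclusion reads. Fisher's exact tests (two-sided) on reads, with Benjamini-Hochberg adjustment over all 21631 exons, compare pooled libraries and were checked on simulated reads. Intervals of shares are exact (Clopper-Pearson) and cover counting error only. Exons were matched to GENCODE release 29, which supplied sequences where the longer version was annotated. Analyses used Python 3.11.15, pandas 2.3.3 and scipy 1.17.1.

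Exons named were up to 10 largest called differences in each direction with 20 or more reads, up to 8 largest changes and 8 largest gaps, up to 6 pairs 3 nt and 4 donors 4 nt apart by reads, up to 3 edges with most versions and up to 3 groups per gene list, 1 per gene and outside overlapping genes. The exons, rules and 5 gene lists were chosen with earlier results of these data known. Other exons, such as SF3B2, VEGFA, APTX, HM13, PTK2, EXOC7 and the set with 20 or more exclusion reads, were chosen after their values were seen. Some exons that met these rules are not reported here.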

Additional observations from a re-analysis of the deposited data

Results flagged for a closer look

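At 2 edges the version with the higher level differed between the lines, by at least 0.1 in each, and the difference was not tested. Neither gap met the rule for a large gap in either line, so which version is higher is not settled. At the edge of ABHD14B and PCBP4, which overlap there with AC115284.1, the 433-nt version was at 0.77 and the 239-nt version at 0.47 in LM2, against 0.49 and 0.62 in the parental line, a change of gap of 0.43. Inclusion reads were 37 and 11 in LM2 and 32 and 22 in the parental line, with 0 exclusion reads. In APTX the 47-nt version was at 0.49 and the 42-nt version at 0.35 in LM2, against 0.25 and 0.36 in the parental line, a change of gap of 0.25, with 8 exclusion reads in LM2 and 15 in the parental line.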

How the results depend on the processing

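No paired analysis was possible because each file holds 1 set of values per line and its columns carry no replicate number, and for the same reason no replicate could be left out. Scoring of splice sites was not run, since no intron sequence was used. A Bayes factor of 5 gave 17 lower versions in place of 10. A difference of 0.1 gave 83 higher and 20 lower, and 0.3 gave 24 and 6. At 50 informative reads 2776 exons and 1292 pairs were left. Among them 33 exons were higher, large gaps numbered 136 in LM2 and 145 in parental cells, and 14 gaps changed. No share over all exons is given at these changed limits, so the counts of called exons are not set against it. Fisher's exact test called 3 and 1, and moving both levels by 0.1 with 20 or more exclusion reads, an alternative added after the data were seen, gave 18 higher. The read-based level has no interval, so a large gap was there one of at least 0.2, without the rule on intervals. By this looser rule it gave 139 large gaps in LM2 and 132 in parental cells, and 13 changed gaps. These counts of large gaps are therefore not directly comparable with those from deposited levels. With 20 informative reads 33 gaps changed, with a threshold of 0.1 266 and of 0.3 18. Against the deposited direction ran the read-based differences of 11 of the 63 called exons, among the named ones the 180-nt CHFR exon (-0.0645), the read-based gap of AFTPH (0.0051 in LM2, 0.0124 in parental cells) and the CCDC14 change between best-covered events (0.14); the cause was not tested. With the narrowest-interval event the 17 named called exons kept their calls.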
